A study of Mus musculus with 6 samples.

Results

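Potassium channel genes were taken as all rows of the deposited gene table whose symbol starts with KCN, which gave 99 rows with 97 symbols among 20323 rows. The rule reads symbols alone. A member was called expressed when its mean over the 6 libraries was at least 1 CPM (counts of a gene scaled by the library's total). By that rule 19 rows were expressed, 41 had some counts but a mean under 1 CPM, and 39 had 0 counts in every library. KCNH1 and KCNMB2 have a pair of rows each, of which 1 row of each pair held 0 counts.

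RNA-seq was done on kidney fibroblasts of the line RFB. TGF-β alone was given for 3 libraries; it is a cytokine that drives fibroblasts toward a fibrotic, contractile state. The other 3 combined TGF-β with CXCL10, a chemokine whose receptor is CXCR3, so both groups carry TGF-β and there is no untreated group. The comparison therefore addresses what CXCL10 adds to TGF-β. The series description names a SUV39H1 knockdown, the sample labels name none, and the groups follow the labels. The labels give mouse as the organism, whereas every row carries a human Ensembl identifier, so levels refer to human gene models. No treatment time or concentration is given in the labels, only a volume of 5 µl in the titles of the CXCL10 samples.

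Potassium channels let potassium leave the cell and so set the resting membrane potential and the driving force for calcium entry. Voltage-gated channels open on depolarisation, calcium-activated channels open when cytosolic calcium rises, inward rectifiers hold the membrane near the potassium equilibrium potential, and two-pore channels carry background leak. In fibroblasts the calcium-activated channels have been widely studied, because the intermediate-conductance channel has been linked to proliferation and to fibrosis, while the large-conductance channel is a major outward conductance of mesenchymal cells.

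Library totals ranged from 12838106 to 15587409 counts, so that 3 counts, the limit that a count of 0 allows, equalled 0.192 to 0.234 CPM. Fibroblast markers were all expressed (13 of 13 rows, summing to 90560 to 96784 CPM with TGF-β and 89902 to 93844 CPM with CXCL10). Of the kidney epithelial markers 2 of 13 reached 1 CPM (CDH1 and PAX8) and 7 were at 0. Of the endothelial markers 3 of 6 reached it, led by TEK with a mean of 47.7 CPM. Of the leukocyte markers 2 of 7 reached it, CD68 with a mean of 39.5 CPM and CSF1R with 3.78 CPM, and CD3E was at 0. Of the smooth muscle and pericyte markers 6 of 8 reached 1 CPM, led by ACTA2 with a mean of 1011 CPM and CSPG4 with 306 CPM. MYH11, the defining smooth muscle myosin, stayed at or below 0.230 CPM. TGF-β replicate 1 stood apart from its group: its counts differed from those of replicates 2 and 3 by a chi-square per degree of freedom of 17.4 and 16.2, against 3.07 between the latter. CXCL10 replicate 1 did so too, at 8.81 and 8.44 against 2.79.

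A small part of the family was expressed. The expressed share was 19 of 99 rows, where 57.2% of all rows of the table reached 1 CPM and 22.8% held 0 counts throughout. Voltage-gated pore subunits made up the largest class with 41 rows, of which 8 were expressed, 13 fell short and 20 were at 0. Of the 13 accessory subunits of voltage-gated channels 4 were expressed and 2 were at 0. The calcium- or sodium-activated class had 3 expressed of 13 rows, the two-pore class 3 of 15, and the inward rectifiers 1 of 16. KCNRG, a regulator of channel assembly that belongs to none of these classes, was not expressed at 0.246 CPM.

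**Figure D1:**
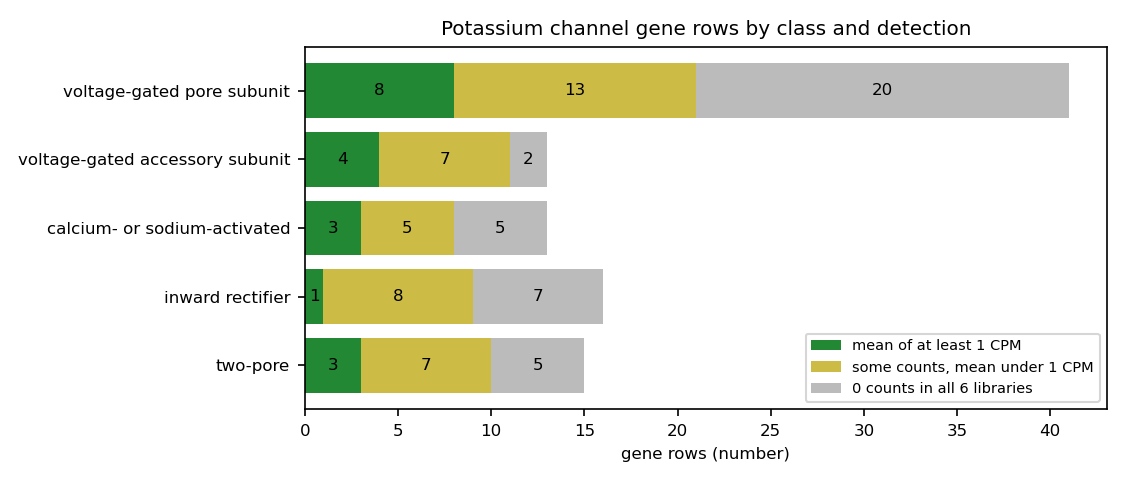
Number of potassium channel gene rows in each class (horizontal axis, rows), split into those with a mean of at least 1 CPM, those with some counts and a mean under 1 CPM, and those with 0 counts in all 6 libraries. The inward rectifiers had 1 expressed row of 16, and 20 of the 41 voltage-gated pore rows were at 0. KCNRG is not drawn.

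The 80 rows that were not expressed came from every class. Among voltage-gated pore subunits, counts under 1 CPM were found for genes that include KCND2, KCND3, KCNH3, KCNS2, KCNV2, KCNC1, KCNH4, KCNS3, KCNG2, KCNF1 and KCNA2, the highest being KCND2 at 0.603 CPM. Those at 0 in all libraries included KCNQ1, KCNQ3, KCNA1, KCNA3, KCNA4, KCNA5, KCNA6, KCNA10, KCNB2, KCNC2, KCNG3, KCNG4, KCNH5, KCNH6, KCNH7, KCNH8, KCNV1 and 1 row of KCNH1. Among accessory subunits KCNIP2, KCNE4, KCNE1, KCNE5, KCNE1B, KCNIP4 and KCNIP3 lay under 1 CPM, and KCNE2 and KCNIP1 were at 0. In the calcium- or sodium-activated class KCNMB4, KCNN1, KCNN2, KCNMB1 and 1 row of KCNMB2 had means of 0.109 CPM or less. KCNT1, KCNT2, KCNN3, KCNU1 and the other KCNMB2 row were at 0.

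Inward rectifiers below the threshold were KCNJ6, KCNJ5, KCNJ14, KCNJ15, KCNJ12, KCNJ13, KCNJ9 and KCNJ10, while KCNJ1, KCNJ3, KCNJ4, KCNJ8, KCNJ11, KCNJ16 and KCNJ18 were at 0. KCNJ8 encodes the pore of the ATP-sensitive channel of pericytes, and KCNJ1 the secretory channel of kidney tubules. KCNJ18 is a near copy of KCNJ12, between which counting could split reads. Two-pore channels with a few counts were KCNK12, KCNK13, KCNK3, KCNK2, KCNK4, KCNK5 and KCNK7, and KCNK9, KCNK10, KCNK16, KCNK17 and KCNK18 were at 0. The stretch-sensitive two-pore channel KCNK2 had counts in CXCL10 replicate 1 only, at 0.346 CPM, which is close to the limit set by depth. KCNJ15, a kidney inward rectifier, read 1.33, 0.898 and 0.230 CPM with TGF-β and 0.415, 0.234 and 0.369 CPM with CXCL10, and the groups overlapped.

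The expression threshold passed through a set of weakly expressed genes. Just inside lay the two-pore genes KCNK1 at 1.13 CPM and KCNK15 at 1.11 CPM. Just outside lay the G-protein-gated inward rectifiers KCNJ6 at 0.863 CPM and KCNJ5 at 0.816 CPM. A mean FPKM of at least 1, in place of CPM, left 10 members expressed.

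Per length, 3 genes of 3 different classes stood at the top. FPKM, a value normalised by the authors for gene length and library size, allow levels to be compared between genes. On that scale KCNMA1 averaged 20.0, KCNK6 19.4 and KCNG1 14.6, and these 3 held 68.8% of the FPKM of all potassium channel rows. KCNMA1 and KCNK6 did not differ beyond their spread, with 16.5 to 24.6 FPKM against 15.7 to 22.6 FPKM over the libraries. The next genes were lower, KCNN4 at 5.06 FPKM and KCNH2 at 3.70 FPKM. KCNMA1 lay at percentile 80.9 of FPKM among detected genes, KCNK6 at 80.4, KCNG1 at 74.9, KCNN4 at 52.3 and KCNH2 at 46.6. The remaining 14 expressed members averaged from 0.266 FPKM (KCNAB1) to 2.43 FPKM (KCNAB2).

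**Figure D2:**
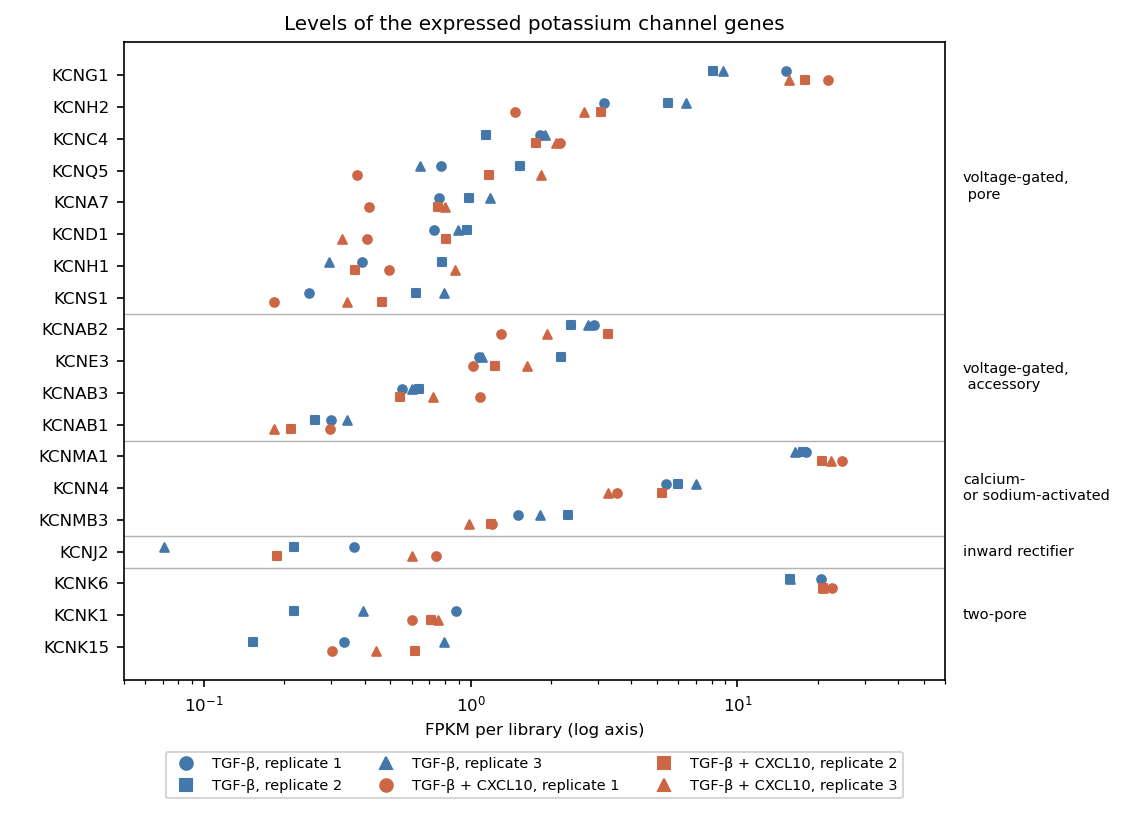
FPKM (log axis) of the 19 expressed potassium channel genes, grouped by class, with a point per library; colour gives the treatment and shape the replicate number. KCNG1, KCNMA1 and KCNK6 stand to the right of the other members, and KCNG1 lies farther right with CXCL10 in all libraries.

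With CXCL10, no potassium channel gene passed in the principal edgeR fit, which was unpaired. When same-numbered libraries were paired in the fit, 3 potassium channel genes rose (KCNG1, KCNK6 and KCNMA1) and 2 fell (KCNH2 and KCNN4). That is 5 of the 21 members tested, which are the 19 expressed ones with KCNJ5 and KCNJ14; of all genes tested, the paired edgeR fit called 17.7% at an adjusted p under 0.05 (9.71% higher and 8.04% lower). Without the pairing the edgeR quasi-likelihood test called 0 of the 21, as it called 0% of all genes. At an unadjusted p under 0.05 the unpaired fit had 7 members, 3 higher and 4 lower, against 20.5% of all genes (10.5% and 10%). Unpaired DESeq2 called KCNG1 higher and KCNH2 lower, against 2.8% of all genes (1.44% and 1.36%). It gave no adjusted p for the 14 tested members with a mean under 5 CPM, so these could not be called. Paired DESeq2 called KCNG1 and KCNK6 higher and KCNH2 lower, against 9.51% (5.71% and 3.79%), and paired limma-trend on log2(FPKM + 1) called KCNG1 and KCNMA1 higher and KCNH2 lower, against 5.76% (2.82% and 2.94%). All 5 called members were among the 7 tested with a mean of at least 5 CPM, where the background was 20.9%. Of the 14 under 5 CPM none was called by paired edgeR, where the background was 4.2%.

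The median paired log2 change over the 21 members was -0.13, beside -0.01 over all tested genes, with 10 members above 0 and 11 below. Counting rows whose groups did not overlap in CPM gave 9 of the 19 expressed members, 3 higher and 6 lower. Among all rows of at least 1 CPM the share was 22.7%, 8.01% higher and 14.6% lower. The same 9 members did not overlap after TMM scaling, where the background was 11.2% higher and 11.3% lower. On FPKM 6 of the 9 did not overlap, 3 higher and 3 lower (KCNH2, KCNN4 and KCNMB3), against 20.7% of those rows (7.74% and 12.9%). The 6 lower ones in CPM were KCNH2, KCNQ5, KCND1, KCNAB2, KCNN4 and KCNMB3, and of these only KCNH2 and KCNN4 passed the paired test.

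**Figure D3:**
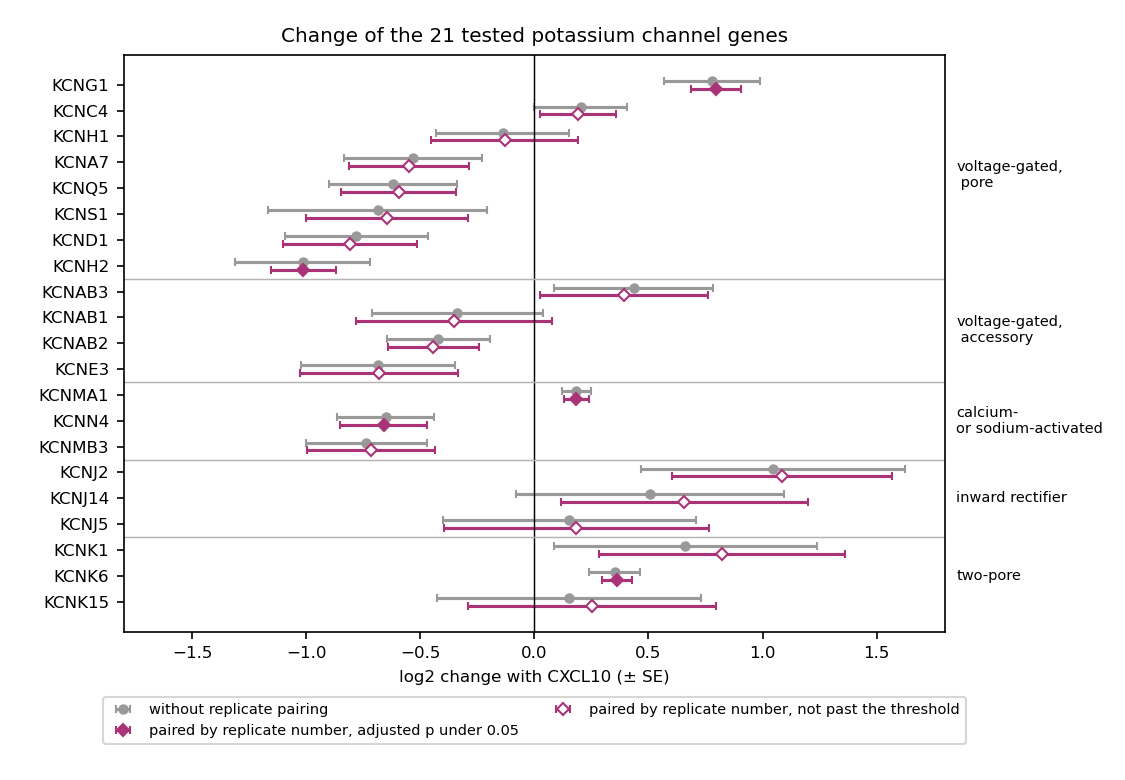
Log2 change with CXCL10 (horizontal axis, edgeR, ± SE) of the 21 tested potassium channel genes by class, without the replicate pairing (grey) and with it (purple; filled where the adjusted p was under 0.05). Filled points are KCNG1, KCNK6 and KCNMA1 to the right of 0 and KCNH2 and KCNN4 to the left.

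The voltage-gated class held the largest rise and the largest fall among the called members. KCNG1 (ENSG00000026559) encodes an electrically silent pore subunit that forms no current alone and modifies other voltage-gated pore subunits. It read 21.7, 13.4 and 13.0 CPM in TGF-β replicates 1 to 3 and 31.9, 25.9 and 22.5 CPM with CXCL10. All CXCL10 libraries were above all TGF-β libraries, although TGF-β replicate 1 came close to the lowest of them. The group means were 16.0 ± 4.92 and 26.8 ± 4.77 CPM (SD, n = 3 per group). By edgeR paired by replicate number the log2 change was 0.80 (SE 0.11, adjusted p = 0.000269), and the adjusted p was 0.161 without the pairing and 0.0168 by unpaired DESeq2. In the authors' deposited table its log2 ratio is 0.79, with an adjusted p of 0.0327.

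KCNH2 (ENSG00000055118) encodes hERG, the rapid delayed rectifier best known from cardiac repolarisation. It read 10.2, 17.4 and 20.8 CPM with TGF-β and 4.70, 9.97 and 8.56 CPM with CXCL10. Every CXCL10 library was below every TGF-β library, yet TGF-β replicate 1 and CXCL10 replicate 2 nearly met. The means were 16.1 ± 5.44 and 7.74 ± 2.73 CPM (SD, n = 3 per group), and within the pairs the log2 differences were -1.08, -0.73 and -1.22. Its change in the paired edgeR fit was -1.01 (SE 0.14, adjusted p = 0.000320), and the adjusted p was 0.161 without the pairing and 0.0199 by unpaired DESeq2. The authors' deposited table gives it a log2 ratio of -1.06 with an adjusted p of 0.0452. KCNG1 and KCNH2 were the 2 potassium channel rows, of 99, under 0.05 there. Of all 20323 rows, 112 were higher and 97 lower at that threshold.

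KCNC4, which encodes a fast-inactivating channel opened by strong depolarisation, was the third of the class in FPKM. It read 7.92, 6.48 and 9.03 CPM with TGF-β and 10.8, 6.93 and 8.34 CPM with CXCL10, and the groups overlapped. The paired edgeR change of 0.19 (SE 0.16, adjusted p = 0.478) did not pass. The other pore subunits, KCNQ5, KCNA7, KCND1, KCNH1 and KCNS1, averaged from 0.442 to 1.06 FPKM, and their paired log2 changes lay between -0.81 (KCND1) and -0.13 (KCNH1) with none past the threshold. KCNQ5 and KCNH1 had small changes of the opposite sign on the log2(FPKM + 1) scale, at 0.07 and 0.09.

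Of the accessory subunits, none of 4 passed in the paired or the unpaired edgeR fit. KCNAB2, a beta subunit with the fold of an aldo-keto reductase, read 7.92, 7.83 and 8.88 CPM with TGF-β and 3.94, 7.24 and 6.72 CPM with CXCL10. Its groups did not overlap, with CXCL10 replicate 1 lowest by a wide margin, and its paired edgeR change was -0.44 (SE 0.20, adjusted p = 0.151). KCNE3, a single-span subunit that keeps KCNQ1 channels open, read 2.10, 3.59 and 2.60 CPM against 1.31, 1.48 and 2.21 CPM, and its groups overlapped. KCNAB3, another beta subunit, read 1.47, 1.67 and 1.68 CPM against 2.97, 1.56 and 1.77 CPM, and only CXCL10 replicate 1 stood above the rest. Over the 12 expressed voltage-gated genes of both kinds, 3 had a paired change above 0 and 9 below, with a median of -0.50 beside -0.01 over all tested genes.

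Among calcium-activated channels the pore genes KCNMA1 and KCNN4 moved in opposite directions in the paired fit. KCNN4 (ENSG00000104783) encodes the intermediate-conductance channel, which opens when calcium binds the calmodulin attached to it. It read 10.2, 10.9 and 13.5 CPM with TGF-β and 6.29, 9.58 and 5.54 CPM with CXCL10. All CXCL10 libraries were lower, and CXCL10 replicate 2 lay nearest the TGF-β group. The means were 11.5 ± 1.71 and 7.14 ± 2.15 CPM (SD, n = 3 per group), and the log2 differences within the pairs were -0.68, -0.12 and -1.22. The paired edgeR change was -0.66 (SE 0.19, adjusted p = 0.0296), while the adjusted p was 0.162 without the pairing and 0.0901 by paired DESeq2. Without both libraries of replicate 3 the paired edgeR change was -0.38 (adjusted p = 0.287).

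KCNMA1 (ENSG00000156113) encodes the pore of the large-conductance BK channel, gated by calcium and voltage together. It read 86.2, 86.8 and 84.1 CPM with TGF-β and 97.0, 94.7 and 91.7 CPM with CXCL10. The replicates were close together and all CXCL10 libraries were higher. The means were 85.7 ± 1.42 and 94.5 ± 2.65 CPM (SD, n = 3 per group), a paired edgeR log2 change of 0.18 (SE 0.06, adjusted p = 0.0350) and an adjusted p of 0.181 without the pairing. This small rise depended on the settings: the adjusted p was 0.176 by paired DESeq2 and 0.0973 with paired edgeR scaled by library totals alone, and 0.169 and 0.142 without both libraries of replicate 2 and of replicate 3. On log2(FPKM + 1) the paired limma-trend change was 0.36 (adjusted p = 0.0494), and the ratio of CPM to FPKM for this gene was 4.77 to 5.11 in the TGF-β libraries and 3.94 to 4.57 in the CXCL10 libraries, which did not overlap.

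KCNMB3, a beta subunit of the BK channel, read 2.94, 4.75 and 4.06 CPM with TGF-β and 2.21, 2.18 and 2.44 CPM with CXCL10. Every CXCL10 library was lower, and the CXCL10 libraries lay closer together than the TGF-β libraries. The paired edgeR change of -0.72 (SE 0.28, adjusted p = 0.0985) did not pass, and it passed in the unpaired fit without TGF-β replicate 1 (-0.89, adjusted p = 0.0440). The other BK beta genes KCNMB1, KCNMB2 and KCNMB4 had means of 0.109 CPM or less over the 6 libraries. The smooth muscle and pericyte markers, genes of contractile mesenchymal cells, summed to 1494 to 1978 CPM with TGF-β and 1059 to 1545 CPM with CXCL10, and 5 of their 6 tested genes fell in the paired fit, which called 8.04% of all genes lower. The part of these markers in the values of the potassium channel genes was not tested, and in bulk RNA fewer cells of a type and less RNA per cell cannot be told apart.

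In the two-pore class the data were carried by KCNK6 (ENSG00000099337), a weakly inward-rectifying background channel of the TWIK group. It read 118, 89.9 and 89.9 CPM with TGF-β and 129, 120 and 120 CPM with CXCL10. All CXCL10 libraries were higher, with TGF-β replicate 1 just below them and TGF-β replicates 2 and 3 together well below. The means were 99.1 ± 15.9 and 123 ± 5.43 CPM (SD, n = 3 per group). The paired edgeR change was 0.36 (SE 0.07, adjusted p = 0.00200), and the adjusted p was 0.161 without the pairing and 0.0879 by paired limma-trend on log2(FPKM + 1).

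KCNK1, of the same TWIK group, read 1.82, 0.449 and 0.383 CPM with TGF-β and 1.24, 1.32 and 1.55 CPM with CXCL10. The highest library was TGF-β replicate 1 and the lowest were TGF-β replicates 2 and 3. With all libraries the paired edgeR change was 0.82 (SE 0.54, adjusted p = 0.335), and without TGF-β replicate 1 the unpaired change was 1.75 (adjusted p = 0.0409). KCNK15, a TASK-type gene not known to form a current alone, read 0.841, 0.385 and 1.99 CPM against 0.760, 1.56 and 1.11 CPM, and its groups overlapped.

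The only inward rectifier that reached 1 CPM was KCNJ2, the strong inward rectifier that sets the resting potential of many cells. It read 1.96, 0.770 and 0.383 CPM with TGF-β and 2.56, 1.01 and 2.73 CPM with CXCL10. The groups overlapped, since TGF-β replicate 1 lay above CXCL10 replicate 2. Its paired edgeR change was 1.09 (SE 0.48, adjusted p = 0.145) and did not pass, and without TGF-β replicate 1 the unpaired change was 1.89 (adjusted p = 0.0424). KCNJ5 read 0.280, 1.09 and 0.995 CPM against 1.11, 0.467 and 0.960 CPM, with a paired edgeR change of 0.18 (SE 0.58, adjusted p = 0.878), and KCNJ6, which was not tested, read 1.82, 0.834 and 0.612 CPM against 0.691, 0.701 and 0.517 CPM.

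**Figure D4:**
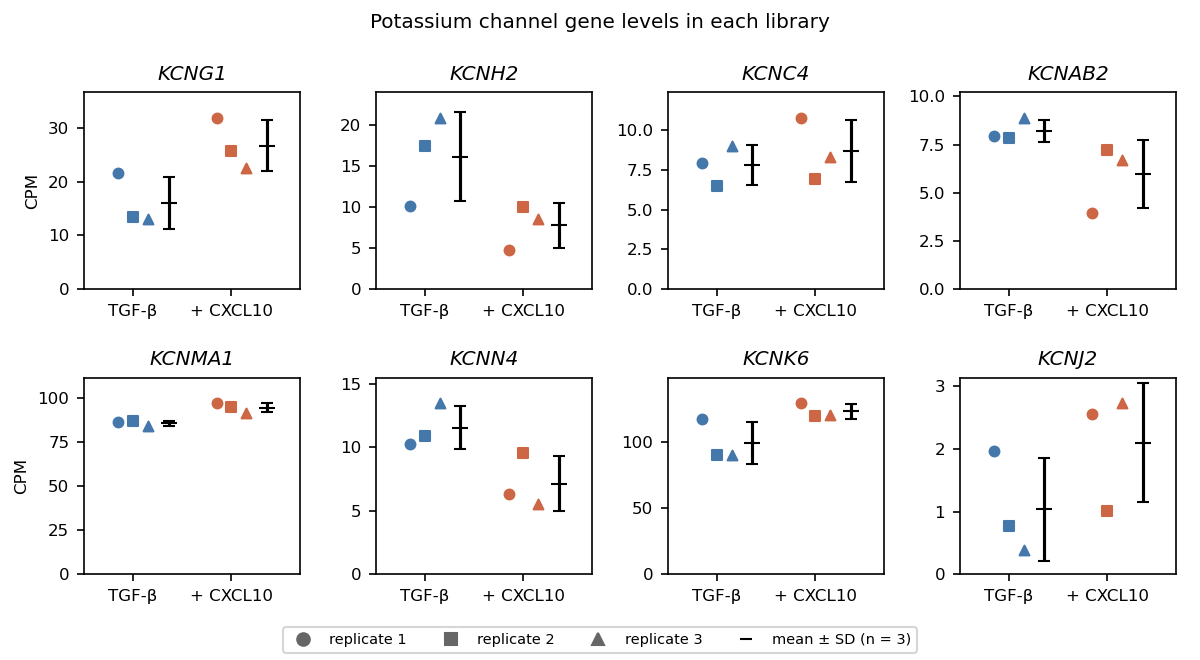
CPM of 8 potassium channel genes in each library, with TGF-β (blue) and with TGF-β and CXCL10 (orange); shape gives the replicate number and the bar the mean ± SD (n = 3). KCNG1, KCNMA1 and KCNK6 are higher and KCNH2, KCNN4 and KCNAB2 lower with CXCL10 without overlap, and TGF-β replicate 1 is the TGF-β library nearest the CXCL10 group for KCNG1, KCNH2, KCNK6 and KCNN4.

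Replicate 1 differed from the mean of replicates 2 and 3 in the same direction in both groups for the called members. These were called by the paired fit, which favours genes whose replicates differ alike in both groups. The share of all genes with such agreement was not computed. As log2 level minus the mean of replicates 2 and 3, the difference within the TGF-β group was 0.76 for KCNG1, -0.86 for KCNH2, 0.43 for KCNK6, -0.20 for KCNN4 and 0.05 for KCNMA1. Within the CXCL10 group it was 0.41, -0.96, 0.11, -0.21 and 0.06 for the same genes. In CPM, KCNN4 replicate 1 with CXCL10 lay between the others, at 6.29 against 9.58 and 5.54. KCNMA1 replicate 1 with TGF-β did so too, at 86.2 CPM against 86.8 and 84.1 CPM. For KCNK6 the difference between TGF-β libraries was thus larger than the treatment change. Without TGF-β replicate 1 the unpaired edgeR fit called 7 members, KCNG1, KCNK6, KCNJ2 and KCNK1 higher and KCNH2, KCNN4 and KCNMB3 lower, against 19.3% of all genes (10.7% and 8.61%). Leaving out any other single library gave 0 members in that fit.

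In the 3 classes led by KCNG1, KCNMA1 and KCNK6, the summed FPKM was higher in every CXCL10 library, and in the first and second of these the remaining members had a lower mean sum with CXCL10. The voltage-gated pore genes summed to 23.6, 20.0 and 21.4 FPKM with TGF-β and 28.0, 26.7 and 25.7 FPKM with CXCL10, a ratio of means of 1.24. Without KCNG1, which held 60.1% of that class, the ratio was 0.762 and the groups overlapped. The calcium- or sodium-activated genes summed to 25.0, 26.1 and 25.5 FPKM against 29.3, 27.3 and 26.8 FPKM, a ratio of 1.09. Without KCNMA1, which held 75.0% of that class, they summed to 6.94, 8.47 and 9.03 FPKM against 4.72, 6.61 and 4.32 FPKM, a ratio of 0.641 with every CXCL10 library lower. The two-pore ratio was 1.24, with KCNK6 holding 94.0% of the class.

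The accessory subunits had a ratio of 0.822 and the inward rectifiers 1.02, both with overlapping groups. All potassium channel rows together averaged 73.1 ± 3.70 FPKM with TGF-β and 83.8 ± 3.31 FPKM with CXCL10 (SD, n = 3 per group), and the groups did not overlap. In CPM the same rows summed to 297, 277 and 280 against 312, 305 and 295, and the groups overlapped. By class, the CPM sums computed after the FPKM sums had been seen overlapped between groups for the calcium- or sodium-activated genes, at 99.7, 103 and 102 against 105, 107 and 99.8, and for the voltage-gated pore genes, at 56.4, 59.4 and 63.7 against 58.5, 58.8 and 54.2. The higher FPKM sums of these 2 classes therefore did not appear in CPM, while the two-pore sum was higher with CXCL10 and the accessory sum lower in every library in CPM. For KCNMA1 the ratio of CPM to FPKM differed between the groups, as given above, and its part in the class sum was not tested. None of these sums was tested.

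**Figure D5:**
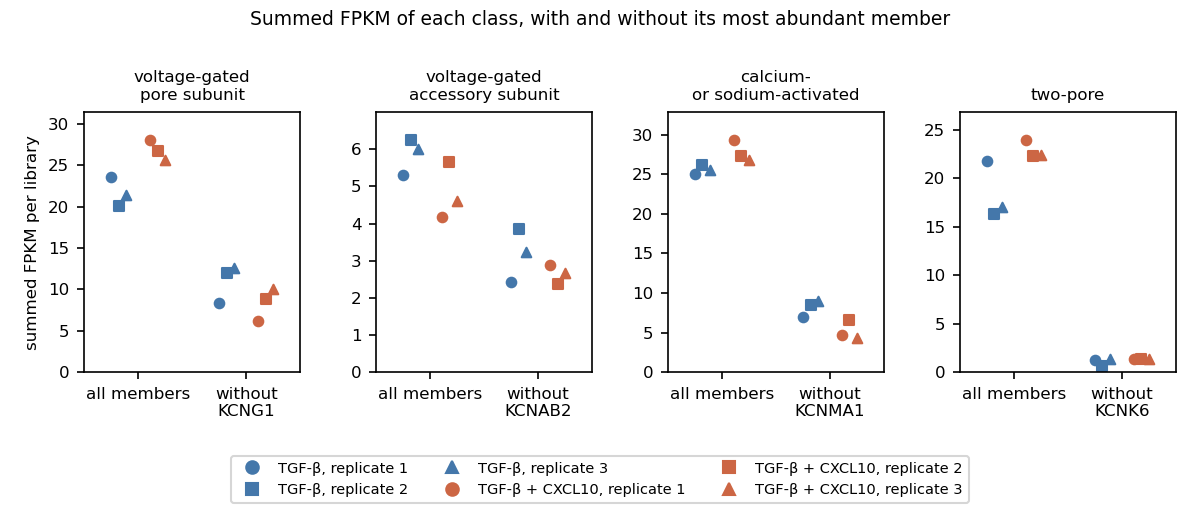
Summed FPKM per library of 4 potassium channel classes, with all members and without the most abundant member; colour gives the treatment and shape the replicate number. With KCNMA1 the calcium- or sodium-activated sum is higher in the CXCL10 libraries and without it lower, and the two-pore sum is nearly all KCNK6. The inward rectifiers, with 1.02 as the ratio of their means, are not drawn.

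Several expressed subunits lacked counts for at least some of the partners listed for them. These pairs were chosen after the levels had been seen and are a description. KCNB2, a pore gene that KCNG1 and KCNS1 modify, had 0 counts in all 6 libraries. KCNE3 is best known with KCNQ1, also at 0, which was the only partner listed for it. The beta subunits KCNAB1, KCNAB2 and KCNAB3 bind pore subunits of the KCNA family, of whose 8 rows 6 were at 0 and KCNA7 alone reached 1 CPM. KCND1, a transient A-type channel, had none of its 6 listed accessory rows at 1 CPM, and ABCC9, the regulatory subunit of ATP-sensitive channels, averaged 5.08 CPM while its pore genes KCNJ8 and KCNJ11 were at 0. The BK beta gene KCNMB3 did have its pore partner, KCNMA1. A count of 0 allows up to 0.192 to 0.234 CPM in a library.

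Among 15 channel partners without a KCN symbol, 7 were tested and 2 rose in the paired fit, CALM2 among them, with a list median of 0.08. That fit called 9.71% of all genes higher and 8.04% lower. CALM2, which encodes the calcium sensor that KCNN channels carry, read 887, 583 and 578 CPM with TGF-β and 1028, 891 and 918 CPM with CXCL10. TGF-β replicate 1 nearly reached the CXCL10 libraries. Its paired edgeR change was 0.54 (SE 0.07, adjusted p = 0.000263).

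Of 29 potassium pump, cotransporter and kinase genes, 12 were tested, of which 2 rose and 3 fell in the paired fit, with a median of 0.07, against 9.71% and 8.04% of all genes. STK39, the kinase that phosphorylates cation-chloride cotransporters, read 45.7, 30.5 and 30.4 CPM against 57.4, 48.1 and 46.4 CPM. All CXCL10 libraries were higher. Its paired edgeR change was 0.57 (SE 0.09, adjusted p = 0.000567), and unpaired DESeq2 gave an adjusted p of 0.0358. SLC12A7, a potassium-chloride cotransporter, read 4.63, 5.45 and 4.06 CPM against 1.87, 2.26 and 2.36 CPM, with every CXCL10 library lower and a paired edgeR change of -1.08 (SE 0.27, adjusted p = 0.0136). The upstream kinases WNK4 (1.21, adjusted p = 0.0236) and WNK1 (-0.18, adjusted p = 0.0208) passed in opposite directions in the paired edgeR fit, with overlapping groups.

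Of 26 genes of calcium entry and release, 21 were tested, of which 2 rose and 6 fell in the paired fit, with a median of -0.14, against 9.71% and 8.04% of all genes. TRPV2, a calcium-permeable cation channel, read 130, 103 and 105 CPM with TGF-β and 164, 155 and 148 CPM with CXCL10. All CXCL10 libraries were higher. By paired edgeR the change was 0.52 (SE 0.06, adjusted p = 7.9e-05), and unpaired DESeq2 gave an adjusted p of 0.00307. CACNA1H, a low-voltage-activated T-type calcium channel, read 2.10, 3.72 and 4.59 CPM against 0.968, 1.01 and 1.48 CPM, lower in every CXCL10 library, with a paired edgeR change of -1.51 (SE 0.34, adjusted p = 0.00830). ITPR2, an inositol trisphosphate receptor that releases stored calcium, and STIM1, the sensor of store depletion, had paired edgeR changes of -0.27 (adjusted p = 0.00996) and -0.33 (adjusted p = 0.0136), and the STIM1 groups overlapped.

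Of 17 other non-selective and volume-regulated channel genes 10 were tested and 1 passed in the paired fit, with a median of -0.02, against 17.7% of all genes in either direction. LRRC8C, a subunit of the volume-regulated anion channel, read 32.0, 16.0 and 13.6 CPM with TGF-β and 61.6, 30.7 and 36.7 CPM with CXCL10. Replicate 1 was the highest library of each group and the groups overlapped. By paired edgeR the change was 1.13 (SE 0.10, adjusted p = 1.5e-05). In each of these 4 lists no gene passed by unpaired edgeR (lowest adjusted p 0.161). Unpaired DESeq2 called STK39 and TRPV2, both higher, where it called 1.44% of all genes higher and 1.36% lower. For CACNA1H and SLC12A7, both lower, unpaired DESeq2 gave no adjusted p. Their unadjusted p by unpaired DESeq2 was 0.000367 and 0.000750, below the 0.000837 of STK39.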

How the data were processed

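Raw counts and FPKM per gene and library were used as deposited, per the file headers, beside the log2 ratio of mean FPKM and the p-value and adjusted p that the authors deposited, whose test is not given in the sources used here. The submitters' processing notes name the mouse builds GRCm38 and mm10, although all 20323 rows are human Ensembl genes. For the aligner, counter, annotation and use of strand the entry is likewise: not given in the sources used here. Libraries were made from total RNA with a SMARTer mRNA kit, per the labels' protocols. The labels do not say that replicates came from separate cultures, so p-values measure the spread between these libraries, which may be technical. The limits given for counts of 0 cover counting error only. Libraries within each group differed by more than sampling noise (chi-square per degree of freedom 2.79 to 17.4).

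Under R 4.3.3, the quasi-likelihood test of edgeR 4.0.16 was fitted to counts of the whole table (TMM, filterByExpr with min.count 10 and min.total.count 15), which kept 11970 genes, with Benjamini-Hochberg adjustment and a threshold of 0.05. The unpaired fit was the principal one. The fit with replicate number as a block is given beside it because libraries sharing a number deviated together from their group means, with correlations of 0.330, 0.121 and 0.163, each over 0.1. This pairing comes from the counts, not from the labels. Between libraries of different number the correlations ran from -0.223 to 0.082. The highest of these were 0.082 and 0.080, between replicates 2 and 3. The matching of 2 with 2 and 3 with 3 therefore rests on small differences. Alternatives were DESeq2 1.42.0, limma-trend (limma 3.58.1) on log2(FPKM + 1), which understates changes of low genes, library totals without TMM, other filters and leaving out libraries.

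The gene family to describe, its classes and the related lists were chosen with earlier results of these data known, and no list was tested as a set. Members named with values are those past the threshold in either edgeR fit or DESeq2, the 3 highest in FPKM of each class, those next to the expression threshold, and KCNK2, KCNJ8 and KCNJ15 by name. KCNQ1OT1, also on that list, is not analysed here. Other members are named to account for the rows, and some genes that the rules name are not reported here. Of the related genes, up to 4 per list past the paired threshold are named with values.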

Additional observations from a re-analysis of the deposited data

How the results depend on the processing

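The unpaired edgeR test called 0 potassium channel genes and 0 genes in all. Over all genes, calls higher and lower numbered 1162 and 962 with the replicate block, 172 and 163 by DESeq2, 684 and 454 by DESeq2 with the block, 877 and 1359 with library totals and the block, and 337 and 352 by limma-trend with the block. With the block they were 1391 and 1045 with no filter and 1174 and 1031 at a mean of at least 5 CPM, both chosen after seeing the data. Among members the same settings gave, in that order, 3 and 2, 1 and 1, 2 and 1, 2 and 2, 2 and 1, 3 and 3 (KCND1 added), and 3 and 2. Leaving out 1 library gave 0 to 1302 higher and 0 to 1046 lower genes, and 0 to 4 and 0 to 3 members, above 0 only without TGF-β replicate 1. Leaving out a pair with the block gave 539 to 1533 and 365 to 1313 genes (680 and 561 without replicate 2) and 2 to 5 and 1 to 2 members. The cause of these differences was not tested.

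The number of expressed members was 10 at a mean FPKM of at least 1, 24 at 0.5 CPM, 14 at 2 CPM, 14 at 1 CPM in each library and 18 to 19 without any single library. Class ratios moved to 0.762 for voltage-gated pore genes without KCNG1 and to 0.641 for calcium- or sodium-activated genes without KCNMA1. KCNJ5 reversed to -0.0655 on FPKM with and without the block, -0.23 without TGF-β replicate 1, -0.09 without CXCL10 replicate 1 and -0.52 in the block without replicate 1. With TGF-β replicate 2 out it was 0.46. KCNK15 reversed to -0.27 without TGF-β replicate 2, -0.13 without CXCL10 replicate 2 and -0.50 in the block without replicate 2. With TGF-β replicate 3 out it was 0.94. The other 12 of 14 named members tested kept their sign in each setting. Some tested members, KCNQ5 and KCNH1 among them, are not counted in these 14. KCNQ5 and KCNH1, below 0 in the paired edgeR fit, changed sign on log2(FPKM + 1), to 0.07 and 0.09. KCNH1 was also at 0.02 in the unpaired edgeR fit without TGF-β replicate 1. Of 20 settings KCNG1 and KCNH2 passed in 11 each, KCNK6 in 9, KCNN4 in 7 and KCNMA1 in 5. At 3 counts, or 0.192 to 0.234 CPM, depth limits what can be said of the 80 rows that were not expressed.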

Other observations

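Some rows under the expression threshold had counts mainly in the TGF-β libraries, and they were picked after their values had been seen. KCNE1, an accessory subunit of delayed rectifiers, had 5, 2 and 10 counts with TGF-β and 0 counts in each CXCL10 library. Its near-identical copy KCNE1B had 1, 3 and 3 counts against 0 in each, and the split of reads between these rows is uncertain. KCNH3, a voltage-gated pore gene mainly of the brain, had 5, 8 and 8 counts with TGF-β and 2, 0 and 0 with CXCL10. Other rows under the threshold had more counts with CXCL10. KCNN2 had 0 counts in each TGF-β library against 0, 3 and 2, and KCNH4 had 0, 2 and 0 against 8, 0 and 2. All these counts were too low for the main filter, and the chosen rows do not show which direction prevailed.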
